A study of Mus musculus with 33 samples.

Results

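Mitosis and G2/M genes are the genes that a cell switches on to leave G2, build a spindle, separate its chromosomes and divide. Their messenger RNA was measured by total RNA sequencing in 3 bone marrow populations of old male C57BL/6 mice, the long-term haematopoietic stem cell (HSC), the common lymphoid progenitor (CLP) and the granulocyte-macrophage progenitor (GMP). The 35 genes were taken by symbol from a list of proteins with known roles in mitosis, and all 35 were found among the 55376 gene symbols in the data. No measured value of these libraries enters that rule. All animals were 24 to 29 months old, and the labels name no engineered allele. In O-WT groups the mice were untreated, and in O-NR groups they drank nicotinamide riboside (NR), a precursor of NAD+, in their water for 4 to 6 weeks. A first cohort held HSCs from O-WT (2 libraries), O-NR (4) and O-NR-RC (3), the last being mice that had received NR and were then kept without it for 2 months. A second cohort held HSC, CLP and GMP from O-WT and O-NR, with 4 libraries in each of the 6 groups. HSCs were sorted as lineage-negative cKit+ Sca1+ CD34- Flk2- CD150+ cells. A label field of the GMP libraries names them common myeloid progenitors, while their titles say GMP.

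Entry into mitosis is driven by cyclin-dependent kinase Cdk1 bound to B-type and A-type cyclins. The spindle checkpoint holds the cell until every kinetochore is attached, and the anaphase-promoting complex with its activator Cdc20 then marks cyclin B and securin for destruction. Transcripts of these genes accumulate from S phase to mitosis under the MuvB complex with B-Myb (Mybl2) and then Foxm1, and the same promoters are shut in resting cells. HSCs are known as largely quiescent cells, whereas CLPs and GMPs contain many dividing cells. In bulk RNA, fewer cycling cells and less of each transcript per cell cannot be told apart, and this applies to every level below.

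The libraries held between 4792380 (CLP O-WT replicate 3) and 23816042 counted reads, and the labels do not say whether each came from its own mouse, so p-values measure the spread between these libraries. Defining markers followed the sort labels. The summed level of 6 HSC markers was 1268 to 1503 counts scaled to library size (CPM) in HSCs of cohort 2 and 28.2 to 130.4 in its other libraries, 6 CLP markers reached 2538 to 4152 CPM in CLPs and 23.2 to 51.3 elsewhere in that cohort, and 6 GMP markers reached 17148 to 19726 CPM in GMPs and 92.9 to 564 elsewhere. Markers of plasma and B cells, red cell precursors, megakaryocytes, late granulocytes and T cells summed to at most 285 CPM in any group. Olfactory and vomeronasal receptor genes, which marrow cells do not use, gave a measure of stray reads. In cohort 2 their 1736 genes summed to 832 to 8001 CPM, with the highest value in CLP O-WT replicate 3. In cohort 1 they summed to 4279 to 14706 CPM, and 4 of its 9 libraries held 13735 CPM or more, namely O-NR replicates 1 and 2 and O-NR-RC replicates 2 and 3. Levels of the mitosis genes are given below as CPM scaled by the trimmed mean of M-values (TMM) within a cohort.

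The promoters of these genes are shown first because the letters that MuvB and the CCAAT-binding factor NF-Y recognise are part of what the genes share outside their measured levels. RefSeq promoters on GRCm38.p6 matched 30 of the 35 genes, with 32 promoters, and the 250 bases before each start site were searched on both strands. Aurkb, Ccna2, Foxm1, Kif20a and Tpx2 had no entry. The 200 bases before the start are printed for Mki67 and Top2a, the most abundant members, Ccnb2 and Hmmr, which hold rows of CCAAT letters, Kif11 and Depdc1a, which hold a single pair of both motifs, and Mybl2, which holds none of the words searched. Capitals mark 3 motifs on either strand. The first is CCAAT, which reads ATTGG on the other strand. The second is the cell cycle genes homology region (CHR), searched as TTTGAA and, in its other form, as TTCGAA. The third is an E2F site, searched as TTCCCGC and with other flanks as TTGGCGC. These words do not cover every form of an E2F site. The letters ttggcggga near the end of the Mybl2 window match neither word and were not counted.
Mki67 (chr7:135716380-135716579, minus strand): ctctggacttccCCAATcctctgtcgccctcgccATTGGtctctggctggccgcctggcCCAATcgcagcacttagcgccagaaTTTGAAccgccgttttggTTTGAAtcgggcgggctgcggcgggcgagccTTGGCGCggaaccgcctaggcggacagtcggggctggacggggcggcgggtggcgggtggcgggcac
Top2a (chr11:99024190-99024389, minus strand): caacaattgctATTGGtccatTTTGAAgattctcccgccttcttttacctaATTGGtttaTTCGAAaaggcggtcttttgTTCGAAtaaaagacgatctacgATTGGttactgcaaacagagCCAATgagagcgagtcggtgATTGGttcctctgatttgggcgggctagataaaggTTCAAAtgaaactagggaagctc
Ccnb2 (chr9:70421555-70421754, minus strand): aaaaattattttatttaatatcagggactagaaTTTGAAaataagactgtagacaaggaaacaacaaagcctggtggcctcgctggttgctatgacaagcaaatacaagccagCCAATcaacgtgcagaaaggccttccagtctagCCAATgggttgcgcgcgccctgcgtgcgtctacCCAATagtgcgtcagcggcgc
Hmmr (chr11:40733438-40733637, minus strand): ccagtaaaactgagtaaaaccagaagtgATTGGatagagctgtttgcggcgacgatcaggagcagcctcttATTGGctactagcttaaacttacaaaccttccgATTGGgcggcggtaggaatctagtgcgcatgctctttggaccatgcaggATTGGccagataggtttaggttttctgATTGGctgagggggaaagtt
Kif11 (chr19:37376182-37376381, plus strand): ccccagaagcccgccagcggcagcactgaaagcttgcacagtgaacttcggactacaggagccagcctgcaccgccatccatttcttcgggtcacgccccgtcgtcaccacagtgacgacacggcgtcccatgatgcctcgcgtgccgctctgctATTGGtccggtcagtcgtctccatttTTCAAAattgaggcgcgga
Depdc1a (chr3:159495233-159495432, plus strand): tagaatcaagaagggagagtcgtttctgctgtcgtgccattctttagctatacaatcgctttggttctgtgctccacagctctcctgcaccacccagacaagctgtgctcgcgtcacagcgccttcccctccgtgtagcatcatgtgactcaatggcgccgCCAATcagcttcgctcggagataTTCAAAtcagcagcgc
Mybl2 (chr2:163054435-163054634, plus strand): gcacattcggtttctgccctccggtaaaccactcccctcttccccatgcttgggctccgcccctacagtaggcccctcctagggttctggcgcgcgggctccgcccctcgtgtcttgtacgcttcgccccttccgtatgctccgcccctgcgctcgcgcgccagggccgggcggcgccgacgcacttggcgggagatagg
CCAAT letters were found in 26 of the 32 promoters (81.2%), beside 33.8% of 32851 promoters in the table. A CHR was found in 12 (37.5%, beside 17.1%), and all 12 also held CCAAT (6.02% of the table held both). An E2F motif was found in 4 (12.5%, beside 5.62%). In Ccnb2 the first letters of the 3 CCAAT motifs lie 87, 54 and 21 bases before the start, 33 apart. In 8 promoters (25%) a pair of CCAAT motifs lies 31 to 34 bases apart, beside 1.08% of the table, a spacing chosen after the promoters had been looked at. These were the promoters of Aurka, Ccnb1, Ccnb2, Cdca3, Cdca8, Cdk1, Hmmr and Ube2c. Anln, Birc5, Mybl2, Ndc80, Nuf2 and Nusap1 held neither CHR nor CCAAT in this window. A match is a description of letters and not a binding site.

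Every one of the 35 genes was higher in GMPs and in CLPs than in HSCs of untreated old mice. In GMP over HSC the median log2 fold change was 3.34 (10.1-fold), from 1.88 for Depdc1a to 4.35 for Birc5, beside a median of -0.31 over all 20044 genes tested. In CLP over HSC the median was 2.89 (7.40-fold), from 2.00 for Cdc20 to 4.07 for Ccna2, beside 0.08 over all genes. All 35 passed an adjusted p of 0.05 as higher in GMP (edgeR quasi-likelihood test, Benjamini-Hochberg), against 22.6% of all genes tested. All 35 also passed as higher in CLP by the same test, against 10.4% of all genes. The 4 HSC libraries did not overlap with the 4 GMP or the 4 CLP libraries for any of the 35 genes, which held for 39.4% of all genes in GMP and 24.1% in CLP.

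The most abundant members per base were the chromosome proteins. Mki67, which coats mitotic chromosomes and keeps them apart, lies at chr7:135689784-135716361. Its level in O-WT was 69.2, 60.4, 107 and 140 CPM in HSCs, 1646, 1428, 809 and 1699 CPM in CLPs, and 1493, 1777, 1489 and 1478 CPM in GMPs. Even the lowest CLP library, replicate 3, stood far above the highest HSC library, and the log2 fold changes were 4.04 ± 0.29 (SE) in GMP and 3.88 ± 0.28 in CLP. Top2a, the topoisomerase that untangles sister chromatids, was at 35.7, 41.9, 49.8 and 67.9 CPM in HSCs, 811, 729, 414 and 954 in CLPs, and 812, 924, 779 and 834 in GMPs. CLP O-WT replicate 3 was again the lowest of its group, and the differences from HSC were 4.08 ± 0.26 and 3.88 ± 0.26. Per kb of exon in O-WT, Mki67 averaged 9.37, 139 and 155 CPM and Top2a 5.42, 80.6 and 92.9 CPM in HSC, CLP and GMP, whereas the median member was at 1.76, 14.7 and 18.6. Together they made up 29.8% of the summed level of the 35 genes in HSCs, and 45.3% and 43.4% in CLPs and GMPs respectively. The progenitors' summed level therefore leans on these 2 genes more than that of HSCs does.

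Of the Cdk1 core, 4 genes were tested, and their median log2 difference from HSC was 3.50 in GMP and 3.15 in CLP. Ccnb1, a B-type cyclin, was at 2.58, 7.77, 7.05 and 7.09 CPM in HSCs of O-WT, at 50.9, 49.7, 37.1 and 65.4 in CLPs and at 64.3, 71.9, 69.0 and 60.4 in GMPs. Cdk1 itself was at 3.77, 12, 7.48 and 10.4 CPM in HSCs, 67.8, 62.7, 51.2 and 88.0 in CLPs and 88.7, 98.2, 86.3 and 83.0 in GMPs. HSC replicate 1 was the lowest for both genes, and no HSC library reached the level of any progenitor library. The differences were 3.39 ± 0.24 and 3.03 ± 0.24 for Ccnb1 and 3.36 ± 0.25 and 2.97 ± 0.24 for Cdk1, in GMP and CLP. Ccna2, cyclin A, had the largest difference of all members in CLP (4.07 ± 0.26).

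Mitotic kinases, 7 genes, had medians of 3.16 in GMP and 2.77 in CLP. Bub1, a checkpoint kinase at the kinetochore, had the smallest p of all members in both comparisons. It was at 3.22, 4.44, 4.09 and 4.63 CPM in HSCs, 53.9, 44.8, 32.3 and 65.6 in CLPs and 65.8, 74.3, 71.3 and 59.6 in GMPs, with log2 fold changes of 4.02 ± 0.20 (edgeR adjusted p = 3.10e-15) and 3.57 ± 0.20 (edgeR adjusted p = 5.41e-14). Plk1, which acts in centrosome maturation and cytokinesis, was at 5.06, 3.59, 2.96 and 3.16 CPM in HSCs, 49.4, 37.4, 30.2 and 57.9 in CLPs and 61.8, 67.7, 46.4 and 50.7 in GMPs. Aurkb, the kinase of the chromosomal passenger complex, was at 2.21, 5.21, 4.61 and 6.60 CPM in HSCs, 62.4, 47.5, 30.9 and 62.5 in CLPs and 90.5, 98.1, 87.1 and 79.3 in GMPs. For these 3 kinases the HSC levels were single digits in all 4 libraries. Nek2, a centrosome kinase, differed least among the kinases (2.37 ± 0.18 in GMP, 2.09 ± 0.18 in CLP).

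The survivin gene Birc5, a subunit of the passenger complex, was at 2.85, 2.05, 2.61 and 5.61 CPM in HSCs, 57.0, 46.3, 32.5 and 54.8 in CLPs and 71.2, 82.7, 66.0 and 53.9 in GMPs, the largest log2 difference of all members in GMP. With its partner Cdca8 it gave medians of 3.91 in GMP and 3.30 in CLP. The 5 kinetochore and centromere genes differed less, with medians of 2.87 and 2.58, and their lowest values belonged to Ndc80, which binds microtubules at the kinetochore (2.09 ± 0.17 and 2.12 ± 0.17). Spindle motors and microtubule-binding proteins, 4 genes, had medians of 3.46 and 3.33, and the 5 genes of the midzone and cytokinesis 3.26 and 2.84.

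Among the 3 genes for ubiquitin steps of mitotic exit, the medians were 3.26 and 2.79. Cdc20, which activates the anaphase-promoting complex, was at 10.9, 7.17, 6.52 and 9.96 CPM in HSCs, 38.3, 37.4, 22.3 and 38.8 in CLPs and 51.4, 61.3, 46.9 and 45.4 in GMPs. Its differences, 2.57 ± 0.18 in GMP and 2.00 ± 0.18 in CLP, were among the smallest, and its HSC level per kb was among the highest (4.63 CPM per kb, the third of the 35 genes after Mki67 and Top2a). Cdc20 overlaps Elovl1 on the opposite strand, and the strand setting of the counting is not given in the sources used here, so reads of the overlap cannot be told apart. The same holds for Mki67 and Gm45240, Top2a and Gm26394, and Nek2 and Gm38037, each on opposite strands.

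The transcription regulators differed from each other. Foxm1, the forkhead factor of late G2, was at 14, 10.5, 14.4 and 11.5 CPM in HSCs, 99.2, 83.5, 54.2 and 119 in CLPs and 84.8, 103, 98.3 and 70.8 in GMPs. Its log2 difference from HSC was 2.82 ± 0.19 in either progenitor. Mybl2, which joins MuvB in S phase, was at 7.36, 5.81, 9.40 and 8.56 CPM in HSCs, 37.8, 39.7, 23.3 and 47.7 in CLPs and 95, 99.0, 86.5 and 75.5 in GMPs. All 4 GMP libraries lay above all 4 CLP libraries for Mybl2, and its differences from HSC were 3.50 ± 0.19 in GMP and 2.26 ± 0.19 in CLP. Depdc1a, a gene first described in tumour cells, had the smallest difference in GMP (1.88 ± 0.27) and was the least abundant member per kb in each of the 3 cell types.

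**Figure D1:**
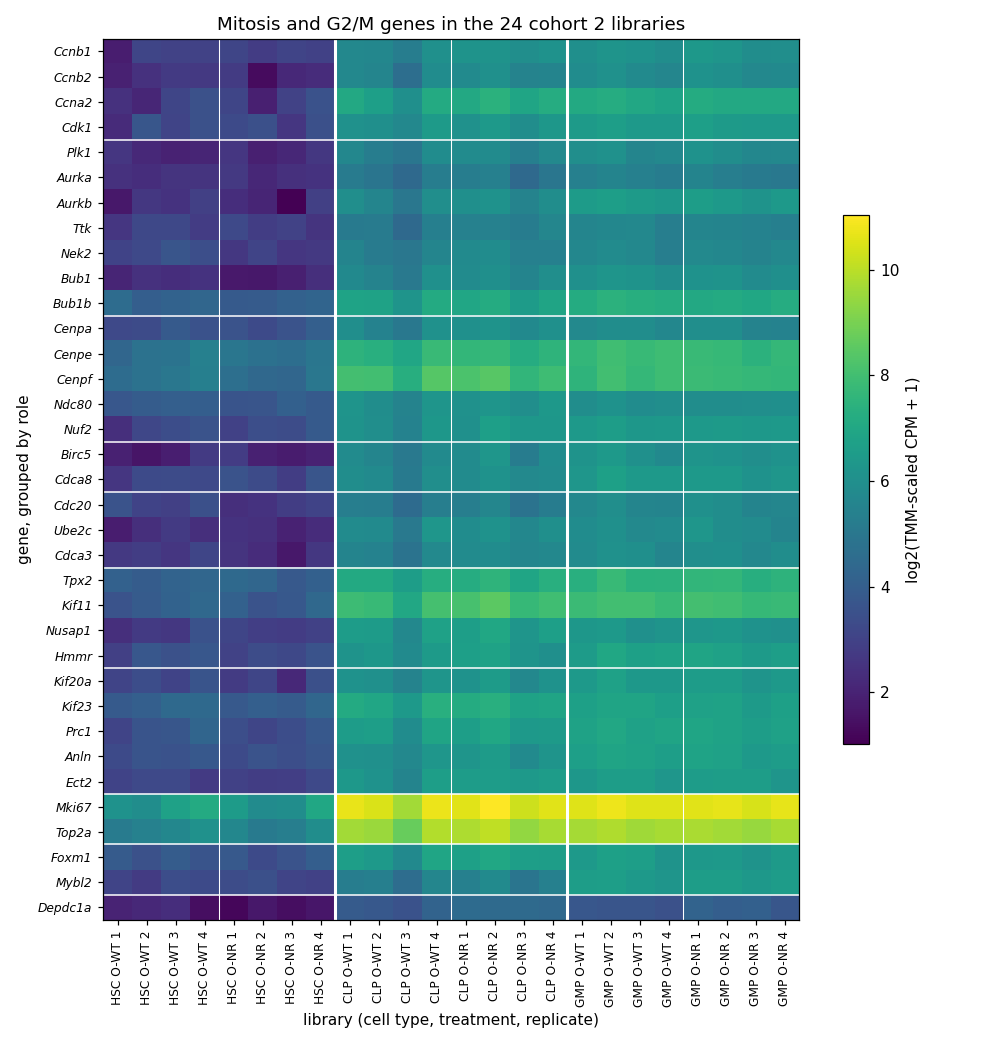
The heatmap plots log2(TMM-scaled CPM + 1) of the 35 genes, grouped by role, in the 24 libraries of cohort 2 (columns; cell type, treatment and replicate). The 8 HSC columns are darker than the 16 progenitor columns in every line, and Mki67 and Top2a are the brightest lines.

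The treated mice repeated the order with libraries that the O-WT comparisons did not use. In O-NR all 35 genes were higher in GMP than in HSC (median 3.44, from 2.24 for Cenpa to 4.57 for Bub1; 24.4% of all 18080 genes tested were called higher). All 35 were also higher in CLP than in HSC (median 3.39, from 2.37 for Mybl2 to 4.42 for Ccna2; 18.3% of all genes were called higher). The smallest p among members belonged to Ect2, the exchange factor that starts the cleavage furrow. In O-NR it was at 6.71, 6.20, 6.40 and 8.30 CPM in HSCs, 94.3, 92.5, 83.4 and 93.4 in CLPs and 94.1, 96.6, 96.0 and 75.6 in GMPs (3.76 ± 0.15 in GMP and 3.79 ± 0.15 in CLP over HSC). Bub1 came next in GMP (4.57 ± 0.19) and Nusap1, a microtubule-bundling protein of the spindle, in CLP (3.96 ± 0.16). Nusap1 was at 7.74, 6.46, 5.97 and 6.82 CPM in HSCs and at 99.7, 126, 75.1 and 102 CPM in CLPs of O-NR. Across the 35 genes the log2 differences in O-WT and O-NR had a Pearson r of 0.87 and a Spearman rho of 0.88 for GMP, and 0.87 and 0.86 for CLP. These correlations are across 35 genes measured in the same libraries, with no library in both treatments, and genes are not independent replicates.

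In HSCs the genes stood nearer to the level of stray reads than in the progenitors. The summed level of the 35 genes was 472 ± 103 CPM (SD, n = 4) in O-WT and 430 ± 83.2 in O-NR of cohort 2. If each gene were read at the median density of the silent receptor genes, their exon length alone would give 8.80 to 21.4% of that sum in the 8 HSC libraries, 0.798 to 4.38% in CLPs and 0.401 to 1.15% in GMPs. Between 26 and 34 of the 35 genes lay above the 95th percentile of receptor densities in HSCs of cohort 2, and all 35 did so in each CLP and GMP library. After Mki67, Top2a and Cdc20, the genes densest in HSCs of O-WT were Bub1b (4.31 CPM per kb), Tpx2 (3.62), Cenpe (3.30) and Ccnb2 (3.01). What part of the HSC level came from cycling cells and what part from stray reads was not tested.

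**Figure D2:**
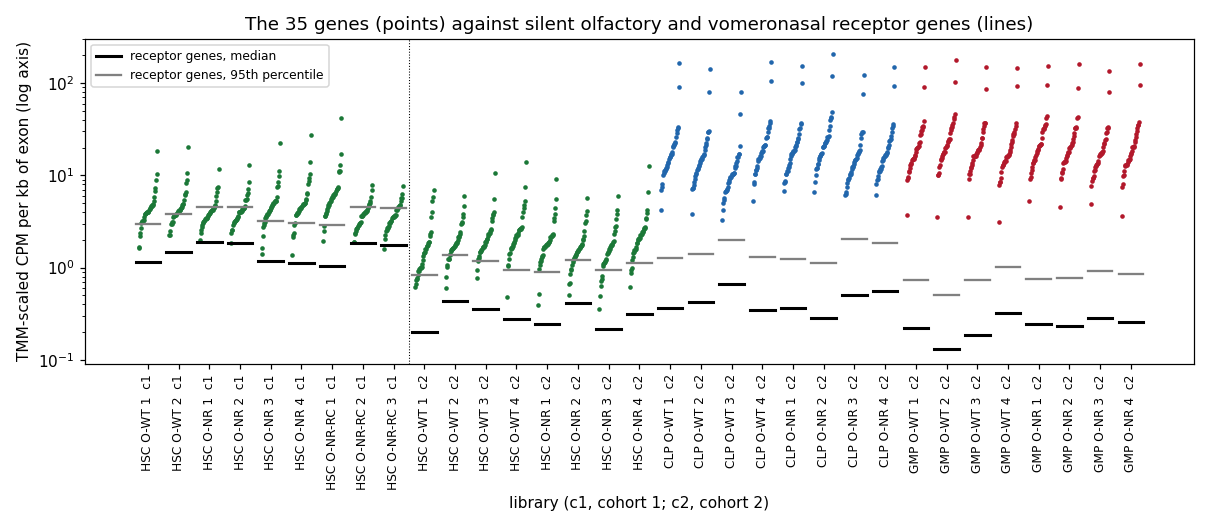
Each coloured point is 1 of the 35 genes, as TMM-scaled CPM per kb of exon on a log axis, in each of the 33 libraries (green, HSC; blue, CLP; red, GMP); the black and grey lines are the median and the 95th percentile of the silent receptor genes. Every CLP and GMP point lies above the grey line, whereas 26 to 34 points do so in the cohort 2 HSC libraries and 8 or 9 in the 4 cohort 1 libraries with the most receptor reads.

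Between the progenitors the direction depended on how the libraries were scaled. With TMM, GMP over CLP in O-WT gave a median log2 fold change of 0.37 over the 35 genes, beside -0.28 over all genes. Of the 35, 14 were called higher and 0 lower at an adjusted p of 0.05 by edgeR, where 28.6% and 32.2% of all genes were called higher and lower. In the same test 15 of the 35 had an unadjusted p under 0.05, beside 13407 of all 20044 genes. The 14 were Mybl2, Aurkb, Cdca8, Anln, Cdc20, Hmmr, Birc5, Bub1b, Ttk, Kif20a, Cdca3, Bub1, Tpx2 and Aurka, that is 5 of the 7 kinases, both passenger subunits and none of the 5 kinetochore genes or the 4 genes of the Cdk1 core. With the study's fold limit of 1.5 in addition, 4 calls were left (Mybl2, Cdca8, Anln and Aurkb). Only 9 of the 35 had groups that did not overlap, beside 46.2% of all genes. Leaving out CLP O-WT replicate 2 left 5 calls (Mybl2, Cdc20, Cdca8, Anln and Aurkb), and leaving out CLP O-WT replicate 3 or GMP O-WT replicate 2 left 8. In O-NR the median was 0.09 (all genes, -0.15), with 4 called higher (Mybl2, Cdc20, Cdca8 and Anln) and 4 lower (Nusap1, Depdc1a, Foxm1 and Kif23), where 26.1% and 23.9% of all genes were called higher and lower. The fold limit left 1, Mybl2. Leaving out GMP O-NR replicate 1 or 2 left 3 of these calls in each case, with Mybl2 and Nusap1 in both.

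Under upper quartile scaling the O-WT median was -0.10, with 1 gene called higher and 6 lower (Cenpf, Nusap1, Depdc1a, Foxm1, Kif23 and Ndc80), where 15.8% of all genes were called higher and 51.3% lower. With TMM computed over genes above 50 CPM alone, a setting chosen after the data had been seen, it was -0.27 with 1 higher and 12 lower, beside 11.2% and 59.6% of all genes. Under DESeq2's median-of-ratios factors it was 0.51 with 18 higher and 0 lower (30.6% and 29.3% of all genes). In O-NR the same 3 settings gave medians of -0.23, -0.31 and 0.14. The median of all genes moved too, from -0.28 with TMM to -0.74, -0.94 and -0.13 in O-WT, so the members stood above the bulk of genes by a similar amount in each. Of all genes called in O-WT, 47.1% were higher in GMP with TMM, 23.5% with upper quartile, 15.9% with TMM over abundant genes and 51.1% with median-of-ratios. The corresponding shares in O-NR were 52.2%, 27.4%, 22.8% and 54.7%.

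Mybl2 was the 1 gene called higher in GMP than in CLP under all 4 scalings and in both treatments. Its log2 difference was 1.25 ± 0.17 in O-WT (edgeR adjusted p = 1.58e-06) and 1.12 ± 0.16 in O-NR (edgeR adjusted p = 2.30e-06), with the lowest values, 0.61 and 0.73, under TMM over abundant genes. In O-NR it stood at 40.7, 55.6, 29.4 and 41.0 CPM in CLPs and at 96.5, 97.0, 81.0 and 94.0 CPM in GMPs, again without overlap. Anln, an actin-binding protein of the cleavage furrow, was at 67.8, 64.5, 51.0 and 77.3 CPM in CLPs of O-WT and at 101, 116, 109 and 99.3 in GMPs (0.68 ± 0.16 with TMM and 0.03 with TMM over abundant genes). Of the genes on the other side of 0, Kif23, the midzone kinesin, was at 141, 124, 84.1 and 160 CPM in CLPs of O-WT and at 104, 117, 116 and 101 in GMPs (-0.23 ± 0.18). Cenpf, a large kinetochore protein, was at 265, 256, 155 and 333 CPM in CLPs and at 187, 253, 208 and 241 in GMPs of O-WT (-0.19 ± 0.20). Nusap1 was at 92.6, 91.4, 51.6 and 106 CPM in CLPs and 79.3, 83.7, 66.2 and 72.5 in GMPs of O-WT (-0.19 ± 0.20). These 3 did not pass the test in O-WT. With TMM, CLP O-WT replicate 3 lay below every GMP library for all of them, while the other 3 CLP libraries lay above all GMP libraries or nearly so. On the plain library total replicate 3 lay above every O-WT GMP library for all of them. It held 141 CPM of Kif23 (GMPs at most 96.0), 260 of Cenpf (at most 229) and 86.4 of Nusap1 (at most 68.6). Depdc1a, Ndc80 and Foxm1 also had log2 fold changes at or below 0 in O-WT (-0.28, -0.03 and -0.00). Mki67 was at 0.15 ± 0.25 with TMM, -0.30 with upper quartile and -0.47 with TMM over abundant genes.

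**Figure D3:**
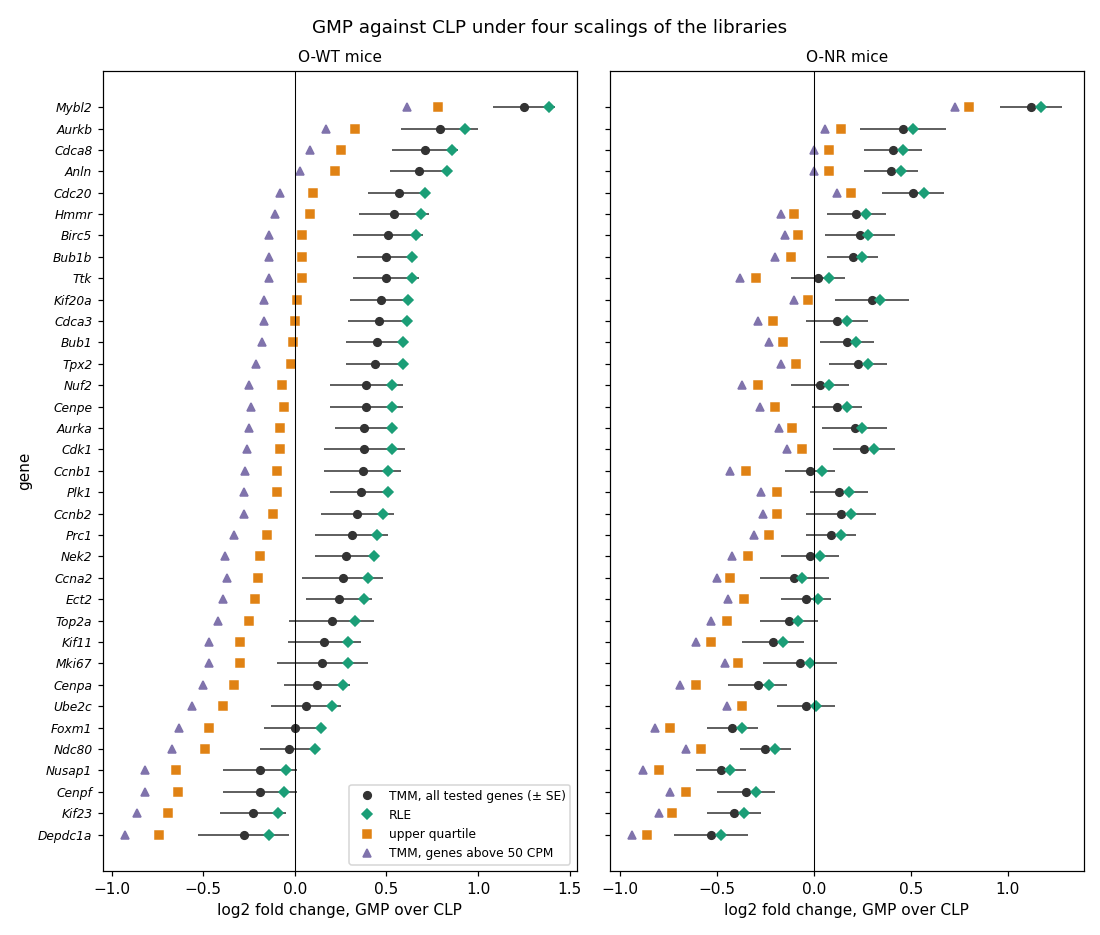
The log2 fold changes of GMP over CLP are plotted for the 35 genes (ordered by their O-WT value) in O-WT and O-NR mice under 4 scalings, with SE bars for TMM. The 4 symbols of a gene shift together, RLE (median-of-ratios) to the right and TMM over genes above 50 CPM to the left, and Mybl2 is the gene whose 4 symbols lie farthest right of 0 in both panels.

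The summed level of the O-WT groups also changed order with the scaling. It was 4647 ± 1267 CPM (SD, n = 4) in CLPs and 5522 ± 469 in GMPs of O-WT with TMM, and 5520.2 ± 487 and 4650.4 ± 330.2 as CPM of the plain library total. In O-NR the CLP mean was the higher one on both scales (5403 ± 998 against 5383 ± 388 CPM with TMM, 5628 ± 541 against 4594 ± 165 of the plain total). CLP O-WT replicate 3, the library with the most receptor reads of cohort 2, was at 2891 CPM with TMM while its group otherwise held 4659 to 5843. With TMM over abundant genes the 8 CLP libraries lay between 5399 and 6130.1 CPM and the 8 GMP libraries between 4135 and 4535. HSC levels of cohort 2 were 299 to 640 CPM over these scalings, below the lowest progenitor value of 2891.

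**Figure D4:**
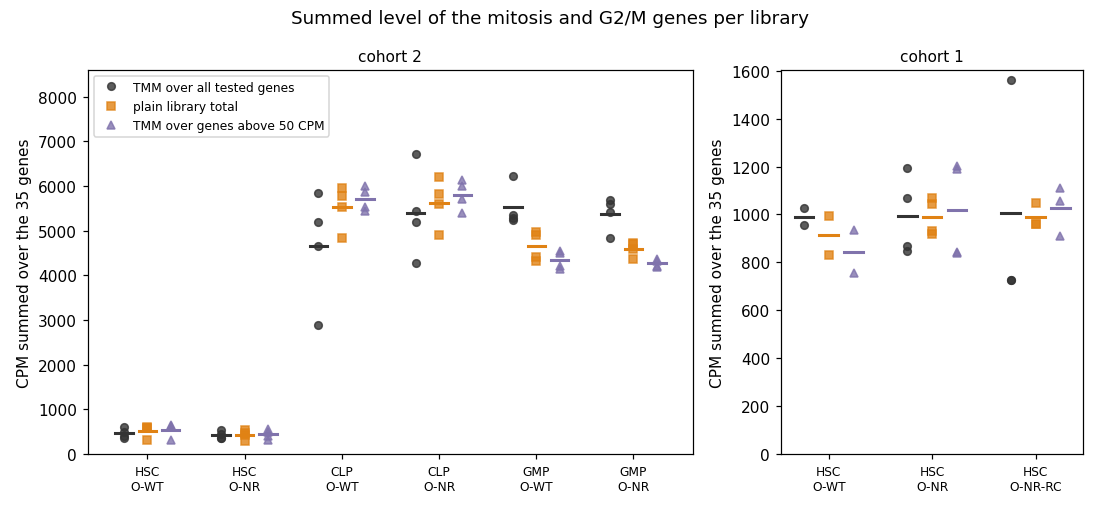
CPM summed over the 35 genes are plotted for each library (points) and each group mean (bars) under 3 scalings, for cohort 2 on the left and cohort 1 on the right. HSCs of cohort 2 lie at or under 640 CPM in each scaling, whereas the CLP and GMP means of O-WT exchange their order between TMM and the plain library total and those of O-NR do not.

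The second question of the design was whether NR changed these genes. In HSCs of cohort 2 none of the 34 genes tested passed an unadjusted p of 0.01, where 0.777% of all 17364 genes did, and none had an adjusted p under 0.05 (edgeR). An unadjusted p under 0.05 was reached by 4 genes (Cdc20, Nek2, Cenpf and Bub1b), beside 705 of all 17364 genes, and all 4 were lower in O-NR. The median log2 fold change was -0.19, and 26 of 34 were negative, beside 51.2% of all genes, and no gene had groups apart (1.21% of all genes). Cdc20 was at 10.9, 7.17, 6.52 and 9.96 CPM in O-WT and at 4.19, 4.63, 6.23 and 7.31 in O-NR (-0.69 ± 0.26). Nek2, at chr1:191821444-191833050, was at 7.18, 8.46, 11.6 and 9.75 CPM in O-WT and at 5.22, 7.51, 5.11 and 5.43 in O-NR (-0.74 ± 0.29). In both genes 3 of the 4 O-NR libraries lay below all O-WT libraries and the remaining one inside their range. The genes with a positive value were Ccna2, Ccnb1, Mybl2, Birc5, Cenpa, Plk1, Nuf2 and Cdca8, the highest of them at 0.18. The calls and the median shifted with single libraries, the median from -0.35 without O-WT replicate 1 to -0.08 without O-NR replicate 3. Leaving out O-WT replicate 1 gave 3 calls (Cenpf, Nek2 and Prc1, all lower), and leaving out O-NR replicate 2 or 4 gave 1 (Nek2) and 2 (Cenpf and Cdc20). DESeq2 called 1 gene, Cdc20, as lower. The share of 0.777% belongs to the edgeR fit with every library, and none is given for these alternatives. The smallest adjusted p of the 34 genes was 0.995 (edgeR). The 2 most abundant members did not pass, with Mki67 at 91.7, 57.4, 60.4 and 126 CPM and Top2a at 49.8, 33.8, 38.4 and 59.5 CPM in O-NR. The median SE of the 34 log2 fold changes was 0.29.

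In CLPs 0 of 35 passed an unadjusted p of 0.01, where 0.412% of all 19909 genes did, and 0 had an adjusted p under 0.05. Here 33 of 35 log2 fold changes were positive (49.3% of all genes; Aurka and Kif23 were at -0.01 and -0.00), with a median of 0.15, but the median was 0.03 without CLP O-WT replicate 3. It also changed with the scaling, to 0.10 with 27 of 35 positive under upper quartile and to 0.01 with 20 of 35 positive under TMM over abundant genes, where the median of all genes was -0.07 and -0.17. Only 1 gene, Depdc1a, had groups that did not overlap, beside 2.32% of all genes. Depdc1a, at chr3:159495433-159529955, was at 13.9, 12.8, 10.8 and 17.6 CPM in O-WT and at 22.3, 21.7, 21.7 and 20.4 in O-NR (0.57 ± 0.21). It came just short of the limit, passed it with DESeq2 and without CLP O-WT replicate 4, and had an adjusted p of 0.99965 (edgeR). Ccnb1 came next, with 71.5, 71.2, 62.4 and 69.7 CPM in O-NR (0.36 ± 0.18). It was the only member beside Depdc1a to come near an unadjusted p of 0.05.

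GMPs gave the narrowest estimates, with a median SE of 0.09 and a range of log2 fold changes from -0.18 (Bub1b) to 0.40 (Depdc1a). There 0 of 35 passed an unadjusted p of 0.01, where 0.986% of all 13486 genes did, 0 had an adjusted p under 0.05 (smallest adjusted p = 0.997, edgeR), and DESeq2 called 0. In edgeR 2 of the 35 had an unadjusted p under 0.05, beside 651 of all 13486 genes. Depdc1a was at 12.3, 11.6, 11.8 and 10.3 CPM in O-WT and at 17.5, 15, 16.3 and 12.1 in O-NR (0.40 ± 0.14). Of the 4 O-NR libraries 3 lay above all O-WT libraries and the remaining one, replicate 4, above 3 of them, and without that replicate the gene passed (0.50). Bub1b, the checkpoint protein BubR1, was at 143, 173, 157 and 148 CPM in O-WT and at 135, 140, 126 and 149 in O-NR (-0.18 ± 0.07).

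Depdc1a thus had positive log2 fold changes in both progenitors, while in HSCs it missed the filter of 3 CPM in 4 libraries and was not tested alone. Its HSC level was 3.04, 3.59, 4.09 and 1.61 CPM in O-WT and 1.30, 2.18, 1.64 and 2.07 in O-NR, from 23 to 47 and 14 to 25 reads. Per kb of exon the O-NR libraries of HSCs held 0.393, 0.657, 0.495 and 0.624 CPM. All lay below the 95th percentile of receptor densities in their library (0.897, 1.21, 0.945 and 1.13). The O-WT libraries held 0.914, 1.08, 1.23 and 0.486 CPM beside 0.826, 1.36, 1.18 and 0.938. What part stray reads had in these levels was not tested. Depdc1a entered a fit of all 24 libraries only through its CLP and GMP levels. There the NR effect in HSC minus that in CLP was -1.40 ± 0.36, and minus that in GMP -1.16 ± 0.36. The difference to CLP passed 0.01 under each of the 9 other settings and without any 1 of the 24 libraries, and so did the difference to GMP. These fits reuse the same few HSC reads, so their repeats add no independent support. They cannot show that the HSC levels stood clear of stray reads. The adjusted p-values (edgeR) were 0.999998 and 0.999952 over the 22573 genes tested. Nek2 (-0.98 ± 0.29) and Cdca3, which triggers destruction of Wee1 (-0.94 ± 0.31), also differed between HSC and CLP at an unadjusted p of 0.01, where 0.403% of all genes did. Cdca3 was at 5.43, 6.15, 5.05 and 7.58 CPM in HSC O-WT and at 4.75, 3.93, 2.16 and 5.34 in HSC O-NR, and at 45.3, 43.0, 27.8 and 52.2 against 57.4, 57.7, 48.2 and 51.0 in CLPs. In HSCs 3 of the 4 O-NR libraries lay below all O-WT libraries, and in CLPs every O-NR library lay above 3 of the 4 O-WT libraries. In CLPs Nek2 was at 45.0, 35.5, 31.3 and 46.4 CPM in O-WT and at 55.4, 59.2, 40.6 and 41.2 in O-NR. Without HSC O-WT replicate 4 or HSC O-NR replicate 3 the call of Cdca3 was lost.

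For HSC against GMP the 1 call, Depdc1a, stood beside 0.146% of all genes, and Cdc20 followed (-0.74). For CLP against GMP 0 members were called, beside 0.403% of all genes. All 35 differences were positive there, as were 54.9% over all genes, with a median of 0.27 (0.11 without CLP O-WT replicate 3), and with Ttk, a checkpoint kinase, first (0.46) and Foxm1 second (0.40). Under upper quartile scaling 31 of 35 were positive (median 0.14), and under TMM over abundant genes 24 of 35 (median 0.05). Ttk was at 33.7, 35.5, 20.9 and 39.8 CPM in CLP O-WT and 41.6, 41.8, 36.7 and 48.5 in CLP O-NR, against 47.4, 49.2, 50.8 and 38.7 and 46.7, 45.7, 43.2 and 39.5 in GMPs. The CLP O-WT minimum was again replicate 3.

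**Figure D5:**
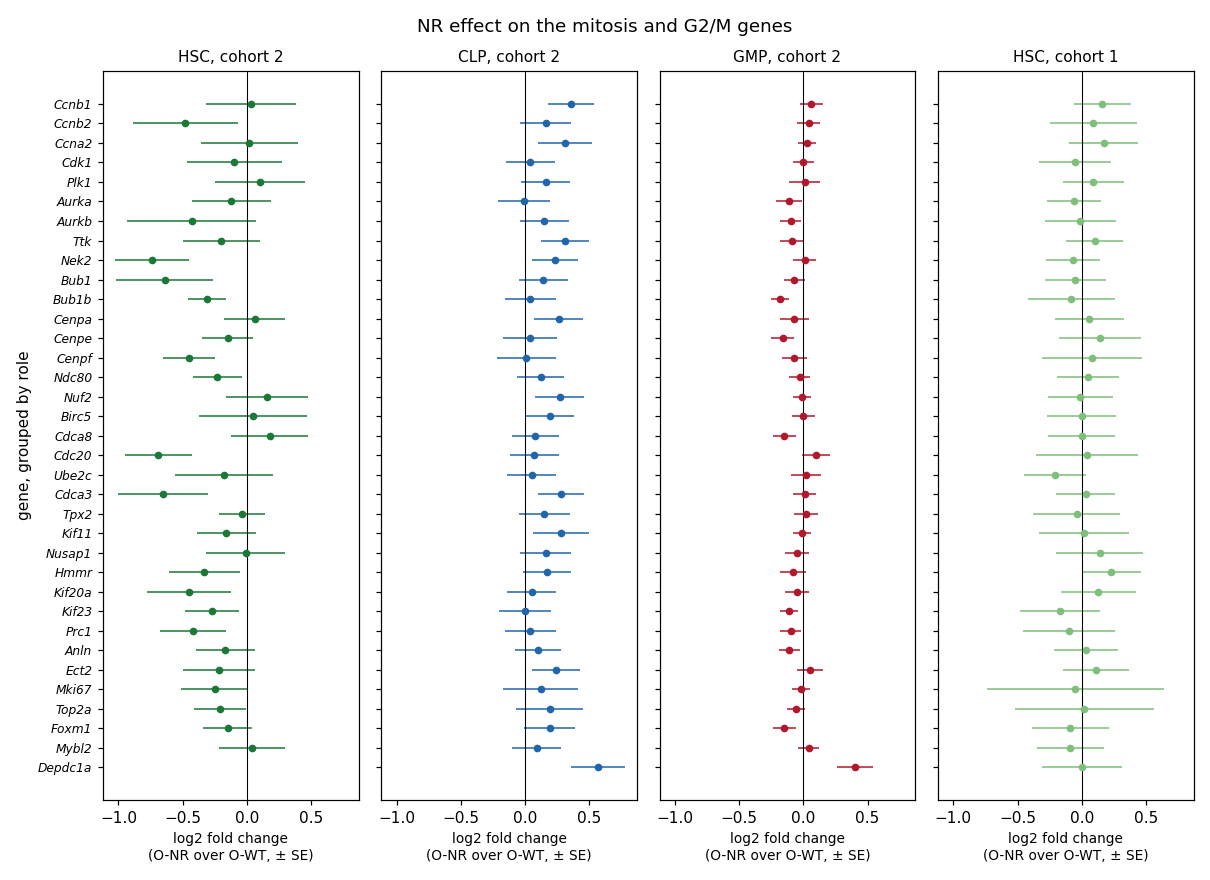
The log2 fold change of O-NR over O-WT (point) and its SE (bar) are plotted for each gene in HSCs, CLPs and GMPs of cohort 2 and in HSCs of cohort 1. Bars are narrowest in GMPs (median SE 0.09) and wider in HSCs (0.29 and 0.27), and Depdc1a lies farthest right in CLPs and GMPs and has no point in cohort 2 HSCs.

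HSCs of cohort 1 carried more stray reads, so their members stood less clear of the background. The summed level was 956 and 1025 CPM in O-WT, 848, 867, 1069 and 1194 in O-NR, and 1562, 727 and 728 in O-NR-RC, and receptor-level density over the same exons would give 12.6 to 47.8% of it. The low libraries of each treated group were those with the most receptor reads, and on the plain library total the range was 832 to 1071 CPM over all 9 libraries. In the 4 libraries with receptor sums of 13735 CPM or more, 8 or 9 of the 35 genes lay above the 95th percentile of receptor densities, while 22 to 32 did in the other 5. What part stray reads had in the results of this cohort was not tested.

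Here 0 of 35 genes passed an unadjusted p of 0.01 for O-NR against O-WT, where 0.048% of all 33350 genes did, 0 passed 0.05 (smallest adjusted p = 0.9999, edgeR), and the median log2 fold change was 0.02. The filter let 1353 receptor genes into these 33350, beside 226, 422 and 84 in the NR fits of HSC, CLP and GMP in cohort 2. The shares, medians over all genes and adjusted p-values of cohort 1 are taken over that set. With TMM over abundant genes all 35 values were positive, with a median of 0.27 beside 0.34 over all genes, and none was called. Hmmr, a spindle pole protein, was at 19.3 and 19.3 CPM in O-WT and at 23.0, 24.1, 22.4 and 20.9 in O-NR (0.23 ± 0.23, or 0.57 with TMM over abundant genes). Ube2c, the ubiquitin-conjugating enzyme of the anaphase-promoting complex, was at 8.0 and 8.19 CPM in O-WT and at 6.66, 6.65, 7.13 and 7.46 in O-NR (-0.21 ± 0.24). With TMM these 2 genes and Nek2 had groups that did not overlap, beside 5.71% of all genes. On the plain library total the groups of each of them overlapped. Mki67 was at 184 and 204 CPM in O-WT and at 118, 129, 225 and 275 in O-NR. Its O-NR libraries lay on either side of both O-WT libraries, the 2 low ones being those with the most receptor reads.

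After withdrawal of NR 0 of 35 genes were called against O-NR (0.036% of all genes) and 0 against O-WT (0.078% of all genes), with 0 at an unadjusted p under 0.05 by edgeR and medians of 0.04 and 0.04. Ccnb2, a B-type cyclin, was at 8.83 and 9.32 CPM in O-WT, 6.34, 8.48, 11.4 and 12.4 in O-NR and 17.3, 8.05 and 8.62 in O-NR-RC (0.23 ± 0.30 against O-NR; 0.33 ± 0.36 against O-WT). Kif23 was at 31.3, 31.6, 39.2 and 38.1 CPM in O-NR and at 56.7, 32.0 and 34.8 in O-NR-RC (0.23 ± 0.27), and Ect2 at 11.9 and 13.5 CPM in O-WT and at 19.6, 12.6 and 12.3 in O-NR-RC (0.23 ± 0.28). With TMM, O-NR-RC replicate 1, the library with the fewest receptor reads of the cohort, was the high one in each of these genes. As CPM of the plain library total it was the lowest for Kif23 (38.1, 42.3 and 45.9) and Ect2 (13.2, 16.6 and 16.2). Ccnb2 was then at 11.6, 10.6 and 11.4. Mki67 was at 420, 79.8 and 76.3 CPM in O-NR-RC, and Top2a at 153, 43.4 and 43.0. For these genes replicate 1 was also the high one on the plain total (Mki67 282, 105 and 100, Top2a 103, 57.3 and 56.6). Without replicate 1 the median log2 fold change was -0.18 against O-NR and -0.18 against O-WT. Cdc20 (-0.89), Mki67 (-1.26) and Top2a (-1.04) were then called lower than in O-NR and Cdc20 (-0.85) lower than in O-WT, while the log2 fold changes of Kif23 and Ccnb2 turned to -0.07 and -0.22. The 2 libraries that remained were both among the 4 with the most receptor reads. The shares of 0.036% and 0.078% belong to the fit with every library, and none is given for the fit without replicate 1.

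With both cohorts in a single fit, 6 O-WT against 8 O-NR libraries, 0 of 35 genes were called for NR in HSCs, where 0.103% of 23413 genes were, and 25 of 35 log2 fold changes were negative (55.3% of all genes; median -0.06, from -0.14 without HSC O-WT replicate 1 of cohort 2 to -0.02 without replicate 3). Nek2 had the smallest p (-0.42 ± 0.19), followed by Cdc20 (-0.36 ± 0.19). The NR effect in cohort 1 minus that in cohort 2 was 0.75 ± 0.36 for Cdc20 and 0.72 ± 0.36 for Nek2. No member passed 0.01 in that test, where 0.137% of all genes did. With TMM, Nek2 lay at 18.1 and 18.5 CPM in O-WT and at 17.7, 18.0, 17.4 and 16.9 in O-NR of cohort 1, with every O-NR library below both O-WT libraries. As CPM of the plain library total its groups overlapped (15.8 and 17.9 in O-WT, 21.8, 22.2, 14.9 and 13.1 in O-NR).

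Other genes of the same machinery were counted in the same fits. In a list of 126 further mitosis genes, 109 were higher and 4 lower in GMP than in HSC of O-WT (median 1.81), and 86 higher and 5 lower in CLP (median 1.46). Of all genes tested, 22.6% were called higher and 21.5% lower in GMP, and 10.4% and 19.9% in CLP, which are the shares to set beside the counts by role too. The kinetochore scaffold Knl1 (4.33 ± 0.23 in GMP and 3.91 ± 0.23 in CLP) and the spindle kinesin Kif15 (3.94 ± 0.21 in GMP) were among the most different. E2f5, a repressor E2F, Rbl2, a pocket protein of resting cells, and Numa1, a spindle pole protein, were lower in both progenitors. By role, 22 of 23 further spindle motors and microtubule-binding proteins were higher in either progenitor, whereas of 17 genes of the anaphase-promoting complex 11 were higher in GMP and 4 in CLP. The subunits of DREAM, the complex that shuts these promoters in resting cells, were split, with 6 higher and 3 lower of 11 in GMP. In O-NR 107 of the 126 were higher and 4 lower in GMP, and 99 and 6 in CLP, where 24.4% and 18.3% of all genes were called higher.

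All 25 S phase genes were higher in GMP (median 2.28) and in CLP (median 1.88) than in HSC of O-WT, and again in O-NR (2.21 and 2.06). Rrm2, the small subunit of ribonucleotide reductase, differed most (4.54 ± 0.22 and 3.99 ± 0.21 in O-WT). For GMP against CLP with TMM, 20 of the 25 were higher and 0 lower in O-WT, beside 28.6% and 32.2% of all genes (median 0.61; Mcm5, a subunit of the replicative helicase, 0.99, and Cdc45, its cofactor, 0.88) and 16 higher in O-NR (median 0.42). The medians of the 35 mitosis genes in the same fits were 0.37 and 0.09. These S phase counts depended on the scaling as well, with 7 higher and 3 lower in O-WT under upper quartile (median 0.15) and 3 higher and 4 lower under TMM over abundant genes (median -0.01).

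For NR few genes of either list were called. In HSCs of cohort 2, 0 of 126 and 0 of 25 were called at an unadjusted p of 0.01, with medians of -0.04 and 0.05. In CLPs Oip5, a centromere protein, was called among the 126 (0.64 ± 0.23; median of the list 0.16), and 0 of the 25 S phase genes (median 0.23). In GMPs Cdca5, which keeps sister chromatids together (0.25 ± 0.08), and Ska2, a kinetochore protein that was lower (-0.34), were called, with the polymerase gene Pole (0.24 ± 0.07) from the S phase list. In cohort 1 none of either list was called in any of the 3 comparisons. These counts stood beside 0.777% of all genes called in HSCs of cohort 2, 0.412% in CLPs and 0.986% in GMPs. None of these genes had an adjusted p under 0.05 in edgeR.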

How the data were processed

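Total RNA libraries (SMARTer Pico v2) of 33 samples were sequenced. The deposited files held raw counts of reads per gene, made by the authors with trim galore 0.4.3, cutadapt, STAR on mm10 with Gencode M22 features, and featureCounts. The versions of STAR and featureCounts and the strand and multi-mapping settings are not given in the sources used here. Counted reads ranged from 4792380 to 23816042 per library. No column was left unused.

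Genes above 3 CPM in as many libraries as the smallest group held were fitted with edgeR 4.0.16 (R 4.3.3, TMM, quasi-likelihood test), with cell types compared within a treatment and NR within a cell type, and with differences of NR effects in one fit of cohort 2. Calls were made at an adjusted p (Benjamini-Hochberg) of 0.05 between cell types and at an unadjusted p of 0.01 for NR and withdrawal. The study's limits are these with a fold change above 1.5 in addition, which was applied here only as an alternative. All p-values come from fits across all genes passing the filter. Signed differences of NR effects are the first cell type minus the second, and cohort 1 minus cohort 2. Alternatives were DESeq2 1.42.0, other scalings and filters, a replicate block, 1 factor of unwanted variation (RUVr), a fold limit of 1.5, one model of cohort 2 and leaving out each library (109 fits). The fitting steps were tested on simulated data. No pair of libraries agreed within sampling noise (lowest chi-square per degree of freedom 1.91). The libraries of cohort 1 were unevenly alike. O-NR replicates 1 and 2 gave 1.91 and replicates 3 and 4 gave 3.65, against 48.6 to 66.8 across them. O-NR-RC replicates 2 and 3 gave 3.76, against 92.7 and 66.8 with replicate 1. The fits of cohort 1 treated all its libraries as independent, which limits their SEs and p-values.

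Values in every library are given for 10 genes chosen by role, for the 2 genes with the smallest p per direction between cell types, and for the 2 with the smallest p in each NR or withdrawal comparison; Cdca3 and the genes called once a library was left out were named after their values had been seen. The 35 genes, the further lists and the tests were chosen with earlier results of these data known. Promoters came from RefSeq (GRCm38.p6) and exon lengths and positions from Gencode on the same build.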

Additional observations from a re-analysis of the deposited data

Results flagged for a closer look

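In groups of 4 libraries, 161 groups of values were searched for a library far from the rest, and 8 held one. A rate of 1 in 20 would apply to independent groups, whereas these share libraries. Whether there were more flags than chance gives was not tested. In HSCs of cohort 2 these were Ccnb1 in O-WT replicate 1 (2.58 CPM, others 7.05 to 7.77), Birc5 in O-NR replicate 1 (6.06 CPM, others 2.42 to 2.96) and Nek2 in O-NR replicate 2 (7.51 CPM, others 5.11 to 5.43). In CLPs they were Cdc20 in O-WT replicate 3 (22.3 CPM, others 37.4 to 38.8), the library with the most receptor reads of its cohort, and Ect2 in O-NR replicate 3 (83.4 CPM, others 92.5 to 94.3). GMP O-WT replicate 2 was the high library for Mki67 (1777 CPM, others 1478 to 1493) and for the sum of the 35 genes (6222 CPM, others 5237 to 5349). Ect2 was low in GMP O-NR replicate 4 (75.6 CPM, others 94.1 to 96.6). These values are with TMM, and some did not stand apart on the plain library total. There GMP O-WT replicates 2 and 4 held 1402 and 1400 CPM of Mki67, with sums of 4908 and 4959. Cdc20 was at 37.4 CPM in CLP O-WT replicate 3 and 38.3 in replicate 4. Ect2 in CLP O-NR replicate 3 (95.5 CPM) lay inside the range of its group. The other flagged libraries stayed the highest or lowest of their groups.

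The effect of NR differed between cell types at an unadjusted p of 0.01 for 3 genes, and for none of them by adjusted p. The effect in HSC minus that in CLP was -1.40 for Depdc1a, -0.98 for Nek2 and -0.94 for Cdca3, and the effect in HSC minus that in GMP was -1.16 for Depdc1a. Depdc1a entered that fit only through its CLP and GMP levels. It had 14 to 47 reads in each HSC library of cohort 2, where the libraries held 8434214 to 14479453 counted reads. In CLP O-WT replicate 3, with 4792380 counted reads, it had 87.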

How the results depend on the processing

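All 35 genes were called higher in GMP and in CLP than in HSC, in O-WT and O-NR, under every alternative and without any 1 library. The medians of GMP over HSC moved to 2.82 in O-WT with TMM over genes above 50 CPM, and to 3.22 (upper quartile) and 3.03 (TMM over genes above 50 CPM) in O-NR.

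For GMP over CLP in O-WT, upper quartile scaling gave 7 calls with a median of -0.10 and Mki67 at -0.30. TMM over genes above 50 CPM, added after the data had been seen, gave 13 calls, -0.27 and -0.47. No filter gave a median of 0.70, the fold limit left 4 calls, and leaving out single libraries gave 5 to 20. In O-NR upper quartile gave 14 calls (1 higher, 13 lower) with a median of -0.23, beside 15.8% of all genes called higher and 41.7% lower. TMM over genes above 50 CPM gave 19 (1 higher, 18 lower) with -0.31, beside 13.6% and 45.9%. The other counts were 5 with 0.29 (no filter), 2 (one model) and 1 (fold limit). The median was 0.29 with a filter at 1 CPM, and leaving out libraries gave 3 to 9.

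The counts of this paragraph are given without the share of all genes called in the same fits. For NR in HSC of cohort 2, calls were 1 with DESeq2, 2 with RUVr, 3 in one model and 0 to 3 without single libraries. In CLP they were 1 with median-of-ratios scaling, 1 with DESeq2, 4 with RUVr (Ccna2, Ccnb1, Depdc1a and Kif11), 1 in one model and 0 to 1 without single libraries, and in GMP 0 to 1. RUVr gave 1 call in the fit of both cohorts, 1 for the difference between cohorts and 1 for O-NR-RC against O-WT (Mki67, -0.46). Without single libraries O-NR-RC against O-NR gave 0 to 3 calls and against O-WT 0 to 1, with Kif23 from -0.07 to 0.38 and Ccnb2 from -0.22 to 0.42 against O-NR, and Ccnb2 from -0.12 to 0.51 and Ect2 from -0.03 to 0.34 against O-WT, the lowest values without O-NR-RC replicate 1. TMM over genes above 50 CPM put Ube2c of cohort 1 at 0.09, the median of O-NR-RC against O-WT at 0.39 and that of the difference between cohorts at 0.57 (0.13 to 0.45 without single libraries).

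The difference of NR effects between HSC and CLP gave 5 calls with upper quartile, TMM over genes above 50 CPM or RUVr and 2 to 5 without single libraries. Between HSC and GMP it gave 4, 4 and 3, and 1 to 3 without single libraries. The median of the latter was 0.02 with median-of-ratios, 0.02 with DESeq2, 0.02 with a filter at 1 CPM and 0.01 with no filter, and -0.18 to 0.04 without single libraries. The causes were not tested.

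The labels do not say whether same-numbered libraries came from one mouse, and the correlations of these few pairs cannot decide it. Deviations of same-numbered libraries correlated from -0.50 to 0.40 across cell types in O-WT, from -0.36 to 0.66 between treatments in HSC and from -0.82 to 0.77 in cohort 1. With the replicate number as a block, calls for GMP over CLP were 13 and 9 in O-WT and O-NR, Nek2 (-0.75) was called for NR in HSC (1 call) and Depdc1a (0.58) in CLP (1 call). The median SE of the NR effect over these genes was 0.29 in HSC of cohort 2, beside 0.19 in CLP and 0.09 in GMP.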
